A study of Mus musculus with 6 samples.

Results

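The miR-181 family was examined in the livers of NC and MAFLD mice. Its members were the rows of the deposited miRNA table named mmu-miR-181a-5p, mmu-miR-181b-5p, mmu-miR-181c-5p, mmu-miR-181d-5p, mmu-miR-181a-1-3p, mmu-miR-181a-2-3p and mmu-miR-181c-3p, written below without the species prefix. All 7 were listed among 1546 mature miRNAs. The rule that names them uses no measured level, although it was set with earlier results of these data known. Small RNA was sequenced from liver tissue of 3 NC and 3 MAFLD replicates, 1 library each. All mice were male C57BL/6 mice with no transgene described. The growth and treatment notes of all 6 samples describe the cell line HepG2, while their titles and tissue labels name mouse liver, which was followed here. The NC group had a normal diet and the MAFLD group a high-fat diet, both for 16 weeks from 8 weeks of age, with 6 mice per diet in the study. The sources do not say which mice were sequenced or that livers were pooled, and the p-values measure only the spread between these libraries. The liver is a mixed tissue, so fewer cells of a type and less RNA per cell cannot be told apart in these values.

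MiRNAs are short RNAs that guide silencing proteins to mRNAs, mainly through the seed, bases 2 to 8 of the mature strand. Each miR-181 hairpin is cut into a 5p strand and a 3p strand, and the 5p strand is the usual guide. The family is best known from lymphocytes, where miR-181a sets the sensitivity of the T cell receptor by lowering phosphatases, and it is also abundant in brain. MiR-181a is known to repress Sirt1, a deacetylase of energy metabolism, miR-181b to restrain NF-κB signalling in endothelial cells, and miR-181c to act on a mitochondrial mRNA in heart muscle.

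The mature strands are shown because the seed defines the family and because the strands differ at so few bases that reads could be assigned to a neighbour. They come from RefSeq (GRCm38.p6), are written 5′ to 3′, and have the seed in capitals.
miR-181a-5p: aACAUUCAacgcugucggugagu
miR-181b-5p: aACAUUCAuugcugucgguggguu
miR-181c-5p: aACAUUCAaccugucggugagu
miR-181d-5p: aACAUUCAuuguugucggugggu
miR-181a-1-3p: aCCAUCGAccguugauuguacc
miR-181a-2-3p: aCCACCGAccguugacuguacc
miR-181c-3p: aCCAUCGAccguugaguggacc
The 4 guide strands had the same seed, ACAUUCA. No other miRNA had it among the 1312 of the 1546 listed miRNAs with a sequence. The seed CCAUCGA was shared by miR-181a-1-3p and miR-181c-3p, and CCACCGA was found in miR-181a-2-3p alone. With positions counted from 1 at the 5′ end of the first strand named, miR-181b-5p and miR-181d-5p differed by 1 substitution, C12U, and by 1 base of length. MiR-181a-5p and miR-181c-5p differed by no substitution and by 1 missing base. The 3p strands miR-181a-1-3p and miR-181a-2-3p differed by U5C and U16C, and the first of these lies in the seed. How reads that match more than 1 of these strands were assigned is not given in the sources used here.

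The strands come from 6 hairpin genes in 3 pairs in the mouse reference GRCm38. Mir181a-1 (ENSMUSG00000065565.1) lies on the plus strand at chr1:137966455-137966541. Mir181b-1 (ENSMUSG00000065458.1) follows it after 97 bases, at chr1:137966639-137966718. Both lie in an intron of the non-coding gene Gm4258 on the same strand, and both overlap an exon of the non-coding gene A430106G13Rik, Mir181a-1 only in part. Mir181a-2 (ENSMUSG00000065423.1, chr2:38852735-38852810) and Mir181b-2 (ENSMUSG00000065578.1, chr2:38853830-38853918) lie on the plus strand, 1019 bases apart. They are in an intron of Nr6a1, which runs on the opposite strand. Mir181c (ENSMUSG00000065483.2, chr8:84178873-84178961) and Mir181d (ENSMUSG00000076338.1, chr8:84178716-84178787) lie on the minus strand, 85 bases apart, in an intron of Nanos3 on the same strand. In each pair the partner was the only other annotated miRNA gene within 10 kb.

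Both miR-181a hairpins are printed with the mature strands in capitals, since they show why the 5p reads cannot be divided between the loci on chromosomes 1 and 2 while the 3p reads can.
Mir181a-1: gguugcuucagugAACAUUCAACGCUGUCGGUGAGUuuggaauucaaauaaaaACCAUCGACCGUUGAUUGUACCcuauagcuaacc
Mir181a-2: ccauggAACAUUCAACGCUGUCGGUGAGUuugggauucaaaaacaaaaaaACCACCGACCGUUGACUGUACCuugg
The 5p strands of the hairpins are identical, so miR-181a-5p is the sum of both genes, and miR-181b-5p is likewise known as the product of both Mir181b genes.

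Values are CPM, the reads of a miRNA scaled so that all listed miRNAs have the same total in each library. The libraries held between 1336935 and 4685712 such reads. A level of 3 reads, the limit that a count of 0 allows, equalled between 0.640 and 2.24 CPM. MiR-148a-3p alone took between 46.8% and 71.4% of the reads, most in NC replicate 1, and the CPM of all other miRNAs depends in part on this share. The hepatocyte miRNA miR-122-5p was abundant in all libraries, between 42159 and 85150 CPM. Of 9 brain miRNAs, the sum was 597 CPM in NC replicate 1 and 1046 CPM in NC replicate 2, against 70.9 to 123 CPM in the other 4 libraries. MiR-124-3p, a neuronal miRNA, was at 13.7 and 28.7 CPM in these NC libraries. It was listed at 0 in NC replicate 3 and MAFLD replicates 1 and 2 and at 0.652 CPM in MAFLD replicate 3. Results are therefore also given without NC replicates 1 and 2 where these change them.

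The family was a minor part of the liver miRNAs, with 216 to 618 reads per library over the 7 members. MiR-181a-5p was the most abundant member in every library, with a mean of 107 CPM over the 6 libraries, which is rank 101 of 1546. MiR-181b-5p (19.8 CPM) and miR-181d-5p (16.8 CPM) came next. The 3p strands and miR-181c-5p were scarce, between 2.34 and 5.85 CPM. Mature strands are nearly equal in length, so CPM can be set side by side, although ligation favours some sequences over others.

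Neighbours in this order were compared within libraries by a two-sided exact permutation test of the log2(CPM + 1) differences, which cannot go below p = 0.0312 over 6 libraries. MiR-181a-5p exceeded miR-181b-5p in 6 of 6 libraries, by 2.30 ± 0.46 on the log2 scale (SD, n = 6; exact p = 0.0312, adjusted p = 0.0938 over 6 pairs). MiR-181d-5p exceeded miR-181a-1-3p in 6 of 6 libraries, by 1.42 ± 0.66 (SD, n = 6; exact p = 0.0312, adjusted p = 0.0938). MiR-181b-5p exceeded miR-181d-5p in 4 of 6 libraries, by 0.22 ± 0.40 (SD, n = 6; exact p = 0.219). The levels of miR-181a-1-3p, miR-181a-2-3p, miR-181c-3p and miR-181c-5p could not be ordered, with exact p between 0.25 and 0.812 for neighbours.

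**Figure D1:**
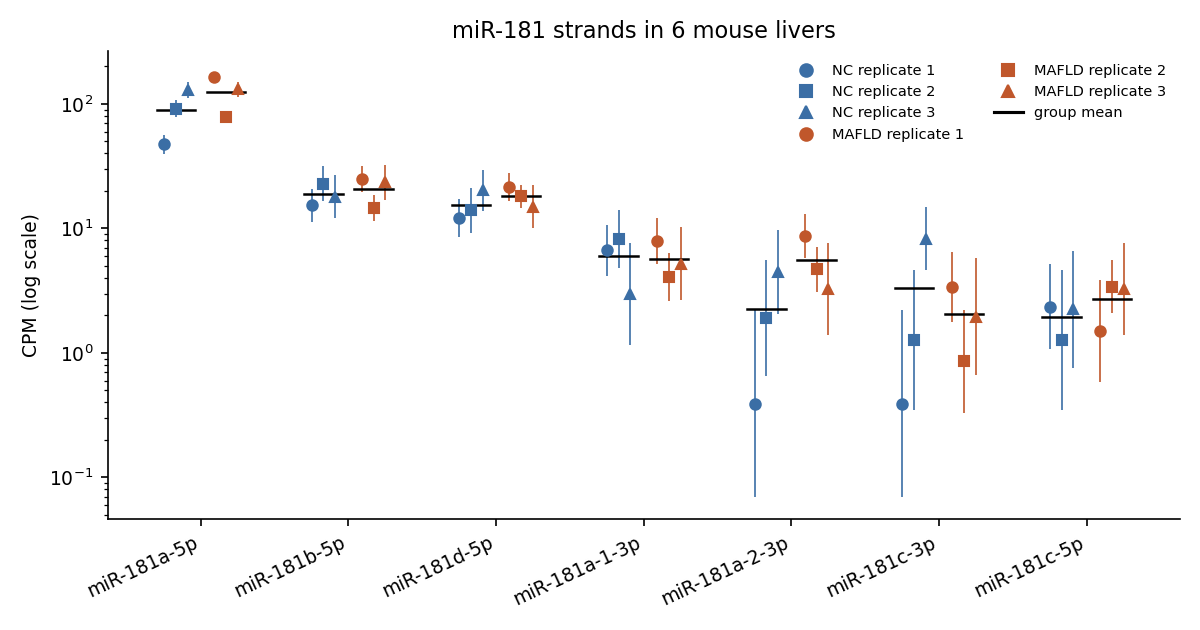
Level of each miR-181 strand in CPM (log axis) in the 3 NC (blue) and 3 MAFLD (orange) livers, ordered by mean level. Points are libraries, vertical lines are 95% Wilson intervals, which cover counting error only, and black bars are group means. The groups overlap for all 7 strands, and miR-181a-5p stands above the others.

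Whether a high-fat diet goes with another level of the family was asked first for the guide strands. In the NC livers miR-181a-5p reached 47.5, 91.8 and 129 CPM, and in the MAFLD livers 164, 79.2 and 131 CPM. NC replicate 1 was the lowest, MAFLD replicate 1 the highest, and MAFLD replicate 2 lay below 2 of the 3 NC livers. NC livers averaged 89.5 ± 41.0 CPM (SD, n = 3) and MAFLD livers 125 ± 42.9 CPM (SD, n = 3). The log2 fold change was 0.53 (95% confidence interval −0.44 to 1.50, adjusted p = 0.549 from limma), within the spread between livers. The coefficient of variation of 45.8% between NC livers was above the counting error of 8.34% expected from their 121 to 173 reads. Median-ratio scaling, which sets the middle miRNA of each library level with the others, gave miR-181a-5p values of 75.0, 118 and 103 against 127, 82.1 and 100.2 scaled CPM. Its log2 fold change was then 0.064 (95% confidence interval −0.52 to 0.65). It was −0.11 without NC replicates 1 and 2.

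MiR-181b-5p, the guide made beside miR-181a-5p from the same primary transcripts, had 15.3, 22.9 and 18.0 CPM in the NC group. It had 24.8, 14.5 and 23.5 CPM in the MAFLD group. MAFLD replicate 2 had the lowest value of all and MAFLD replicate 1 the highest. Its log2 fold change of 0.13 (95% confidence interval −0.84 to 1.11, adjusted p = 0.9 from limma) became −0.31 with median-ratio scaling.

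MiR-181d-5p, whose gene lies beside that of miR-181c in the Nanos3 intron, had 12.2, 14.0 and 20.2 CPM in the NC group and 21.4, 18.1 and 15.0 CPM in the MAFLD group. The lowest values were those of NC replicates 1 and 2, and NC replicate 3 lay above 2 of the MAFLD livers. A log2 fold change of 0.24 (95% confidence interval −0.74 to 1.21, adjusted p = 0.8 from limma) became −0.20 with median-ratio scaling and −0.16 without NC replicates 1 and 2.

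MiR-181c-5p was read 6, 2 and 3 times in NC livers and 4, 16 and 5 times in MAFLD livers. This is 2.35, 1.27 and 2.24 CPM against 1.50, 3.41 and 3.26 CPM, with 2 NC libraries at or under 3 reads. With a log2 fold change of 0.31 (95% confidence interval −0.88 to 1.50, adjusted p = 0.796 from limma) and so few reads, a difference was not detectable at this depth. The value was −0.0066 with median-ratio scaling.

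The 4 guide strands share a seed and were therefore also summed, as a description. Their sum was 77.3, 130.0 and 169.8 CPM in the NC group against 212, 115 and 173 CPM in the MAFLD group. On average this was 126 ± 46.4 CPM (SD, n = 3) against 167 ± 48.6 CPM (SD, n = 3). The ranges overlapped, with MAFLD replicate 2 below 2 of the NC livers. The log2 ratio, taken as the difference between the group means of the log2 sums, was 0.44. It turned to −0.032 with median-ratio scaling and to −0.072 without NC replicates 1 and 2.

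Among the 3p strands, miR-181a-2-3p comes from the locus in Nr6a1. It was read 1, 3 and 6 times in NC livers and 23, 22 and 5 times in MAFLD livers. This is 0.392, 1.91 and 4.49 CPM against 8.63, 4.70 and 3.26 CPM. NC replicates 1 and 2 were at or under 3 reads, and NC replicate 3 lay above MAFLD replicate 3. On the log2 scale the fold change was 1.13 (95% confidence interval −0.19 to 2.45, unadjusted p = 0.088, adjusted p = 0.332 from limma), which was not past the threshold. Without NC replicate 3 it was 1.61 (unadjusted p = 0.0208, adjusted p = 0.0728 from limma), in a fit where 35.3% of all miRNAs had an unadjusted p under 0.05. Without NC replicates 1 and 2 it was 0.17, so the size of the difference rests on these libraries. They were those with the high brain miRNAs, whose part in this difference was not tested.

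MiR-181a-1-3p, the strand of the chromosome 1 locus, had 6.67, 8.28 and 2.99 CPM in the NC group and 7.88, 4.05 and 5.21 CPM in the MAFLD group. NC replicate 2 was the highest and NC replicate 3 the lowest. The log2 fold change was −0.0091 (95% confidence interval −1.16 to 1.14, adjusted p = 0.996 from limma). It was −0.44 with median-ratio scaling and 0.71 without NC replicates 1 and 2.

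MiR-181c-3p had 0.392, 1.27 and 8.23 CPM in the NC group, from 1, 2 and 11 reads. In the MAFLD group it had 3.38, 0.854 and 1.95 CPM, from 9, 4 and 3 reads. NC replicate 3 stood above all the others, and 3 libraries were at or under 3 reads. Its log2 fold change was −0.095 (95% confidence interval −1.60 to 1.41, adjusted p = 0.956 from limma). It turned to 0.70 without NC replicate 3, and it was −1.68 without NC replicates 1 and 2 (unadjusted p = 0.0497, adjusted p = 0.641 from limma), where NC replicate 3 is the only NC library and is assumed to vary like the MAFLD livers. The related strand miR-181b-1-3p, which is no member, had 2 reads over all 6 libraries and was not tested.

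**Figure D2:**
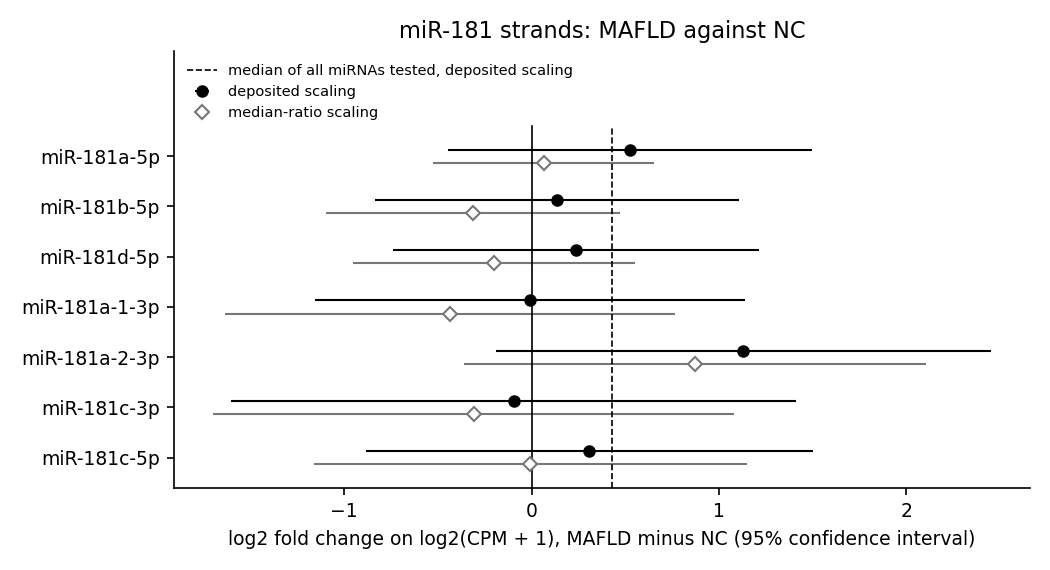
Log2 fold change of each miR-181 strand in MAFLD against NC livers (x axis) with 95% confidence intervals from limma, for the deposited scaling (filled) and median-ratio scaling (open). The solid line marks 0 and the dashed line the median of all 501 miRNAs tested, 0.43. All 14 intervals include 0, and 5 of 7 strands lie above 0 with the deposited scaling against 2 of 7 with median-ratio scaling.

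Over all members, 0 of 7 had an adjusted p under 0.05 in limma, where 0.200% of the 501 miRNAs tested did. At an unadjusted p under 0.05, 0 of 7 passed, where 18.0% of all miRNAs did. By edgeR on the recovered reads the count was also 0 of 7 at either threshold, where 0.200% of all miRNAs passed the adjusted and 17.4% the unadjusted p. By DESeq2 it was 0 of 7 as well, where 5.59% passed the adjusted and 16.6% the unadjusted p. The groups were separate for 0 of 7 members and for 19.4% of all miRNAs. The log2 fold change was above 0 for 5 of 7 members (71.4%) and for 357 of 501 miRNAs (71.3%). The median was 0.24 for the members and 0.43 for all miRNAs. Relative to the median of all miRNAs, miR-181a-5p differed by 0.097, miR-181a-2-3p by 0.70 and the other 5 members by −0.12 to −0.52. With median-ratio scaling the median of all miRNAs was 0.044 and the members' median was −0.20, with 2 of 7 members above 0, miR-181a-5p and miR-181a-2-3p.

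Shares within the family do not depend on the total of a library, and 7 were compared between the groups. MiR-181a-5p made up 61.4%, 70.6% and 76.2% of the 5p reads in NC livers and 77.5%, 68.7% and 75.8% in MAFLD livers. The means were 69.4% ± 7.47 (SD, n = 3) and 74.0% ± 4.68 (SD, n = 3), a difference within the spread (two-sided exact permutation test, p = 0.6, adjusted p = 0.933 over 7 shares; the smallest p that 3 livers against 3 allow is 0.1). NC replicate 1 was the lowest, and its 95% Wilson interval, 54.5% to 67.9%, lay below those of NC replicate 3 and MAFLD replicates 1 and 3. MiR-181b-5p took 16.01% ± 4.83 (SD, n = 3) in NC and 12.6% ± 0.952 (SD, n = 3) in MAFLD livers (exact permutation p = 0.4). Without NC replicates 1 and 2 the differences, MAFLD minus NC, turned to −2.19 percentage points for miR-181a-5p and 2.05 for miR-181b-5p. MiR-181d-5p took 12.8% ± 2.60 (SD, n = 3) and 11.5% ± 3.74 (SD, n = 3) (exact permutation p = 0.6). MiR-181c-5p stayed between 0.708% and 3.05% in all livers (exact permutation p = 1).

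The 3p reads carry the bases by which the miR-181a loci differ. Whether their ratio follows the output of the loci was not tested. MiR-181a-1-3p made up 17 of 18, 13 of 16 and 4 of 10 of these reads in NC livers, and 21 of 44, 19 of 41 and 8 of 13 in MAFLD livers. The shares were 94.4% (95% Wilson interval 74.2% to 99.0%), 81.2% (56.99% to 93.4%) and 40.0% (16.8% to 68.7%) in NC livers. They were 47.7% (33.8% to 62.1%), 46.3% (32.1% to 61.3%) and 61.5% (35.5% to 82.3%) in MAFLD livers. NC replicates 1 and 2 were the highest, NC replicate 3 was the lowest, and the groups overlapped. The mean was 71.9% ± 28.4 (SD, n = 3) against 51.9% ± 8.40 (SD, n = 3), with exact permutation p = 0.4 and adjusted p = 0.933. The interval of NC replicate 1 lay above those of NC replicate 3 and of MAFLD replicates 1 and 2. NC replicates 1 and 2 were also the libraries where the 9 brain miRNAs summed to 597 and 1046 CPM, and their part in the share was not tested. Without them the sign of the difference turned, with NC replicate 3 at 11.9 percentage points below the MAFLD mean.

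The 3p strands together held 9.47% ± 3.77 (SD, n = 3) of all miR-181a reads in NC livers and 8.38% ± 2.04 (SD, n = 3) in MAFLD livers (exact permutation p = 0.7), and the sign of this difference turned without NC replicates 1 and 2, to 2.92 percentage points. The guide strand thus held most miR-181a reads in each library. For miR-181c the 3p strand had 1 of 7, 2 of 4 and 11 of 14 reads in NC livers and 9 of 13, 4 of 20 and 3 of 8 in MAFLD livers (exact permutation p = 0.8). The mean share of the 3p strand differed by −5.38 percentage points, MAFLD minus NC. Without NC replicates 1 and 2 this was −36.3, with NC replicate 3 and its 14 miR-181c reads as the only NC library. Neither strand of miR-181c prevailed in all livers.

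**Figure D3:**
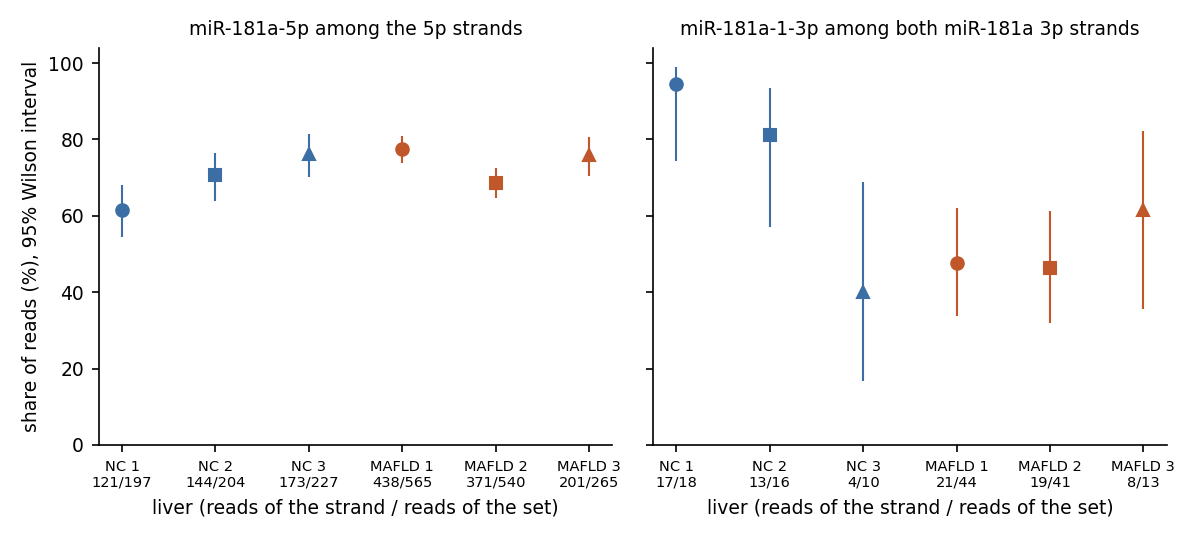
Share of miR-181a-5p among the reads of the 4 guide strands (left) and of miR-181a-1-3p among the reads of both miR-181a 3p strands (right), in percent, for each liver, with 95% Wilson intervals for counting error and the reads under each label. The left shares lie between 61.4% and 77.5%. On the right, NC replicates 1 and 2 stand at 94.4% and 81.2% and the other 4 livers between 40.0% and 61.5%.

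The profile of miR-181a-5p over the 6 livers was set against those of the 235 other miRNAs that averaged 10 CPM or more, miR-181 strands left out. The measure was the root-mean-square difference of log2(CPM + 1) after each miRNA was centred on its own mean. The nearest were miR-335-5p (0.16), miR-362-3p (0.17) and miR-151-5p (0.20). MiR-335-5p ran from 4.31 CPM in NC replicate 1 to 22.9 CPM in MAFLD replicate 1, the same livers that were lowest and highest for miR-181a-5p. It was picked as the nearest profile, so such a likeness follows from the choice. The other guide strands were farther off, at 0.42 for both miR-181b-5p and miR-181d-5p, and 98 of the 235 miRNAs were nearer than either of these. All these values share the totals of the 6 libraries.

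**Figure D4:**
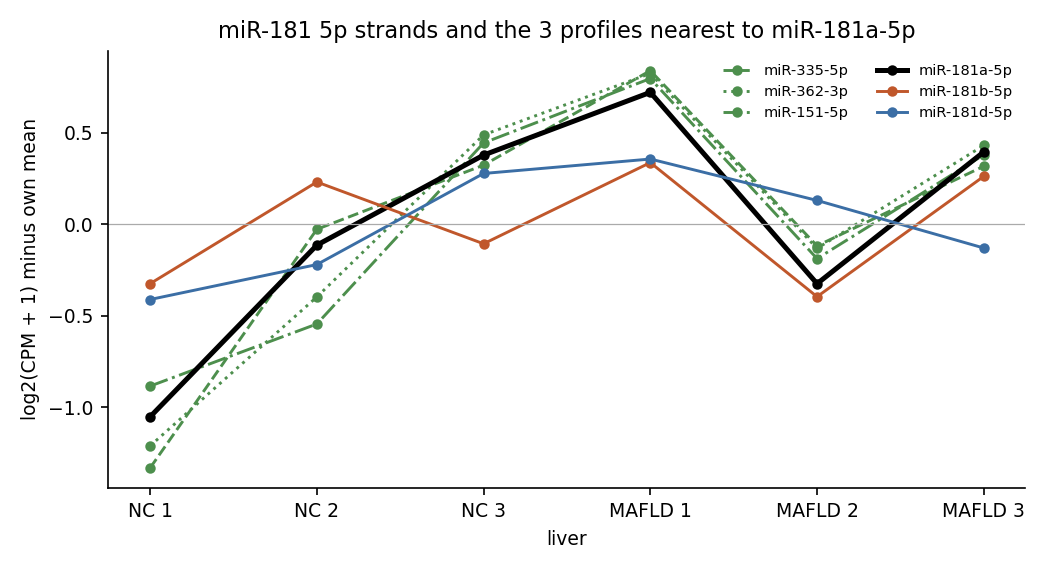
Profiles of miR-181a-5p (thick black), miR-181b-5p, miR-181d-5p and the 3 miRNAs nearest to miR-181a-5p (green) over the 6 livers, as log2(CPM + 1) minus the mean of each miRNA. Lines join the values of a miRNA and imply no order of the livers. MiR-181a-5p and the green profiles, which were picked for their nearness to it, are lowest in NC replicate 1 and highest in MAFLD replicate 1.

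Other miRNAs known to regulate immune cells were listed beside the family. Of 12 such miRNAs, 0 had an adjusted p under 0.05 in limma and 5 were higher at an unadjusted p under 0.05, where 13.4% of all miRNAs were higher and 4.59% lower. Without NC replicate 3, 6 of the 12 passed the adjusted p, where 22.8% of all miRNAs did. The NC libraries left there are replicates 1 and 2, those with the high brain miRNAs. Of the lists given below, 7 of 9 brain and 3 of 5 hepatocyte miRNAs passed it. So did 3 of 5 mesenchymal and stellate, 2 of 2 endothelial and 1 of 7 blood and immune miRNAs. With all libraries, the 5 at an unadjusted p under 0.05 were miR-17-5p, miR-20a-5p, miR-92a-3p, miR-155-5p and miR-29a-3p. The first 3 belong to the miR-17-92 cluster, which promotes lymphocyte survival. MiR-155-5p is induced in activated immune cells, and miR-29a-3p is a repressor of collagen mRNAs. MiR-155-5p had a log2 fold change of 1.53 and miR-92a-3p of 1.19. The median of the 12 was 0.90, and it was 0.44 with median-ratio scaling, where 9 of 12 lay above 0. Without NC replicates 1 and 2 the median of the 12 was 0.20, where that of all miRNAs was −0.024. Only 1 NC library is left there.

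Lists of miRNAs typical of other cells gave these values. The 7 blood and immune miRNAs summed to between 1634 and 3092 CPM in NC and between 2279 and 3362 CPM in MAFLD livers, mostly miR-146a-5p. Of these 7, 6 are also among the 12 above. Their log2 fold changes were above 0 for 7 of 7, with a median of 0.80. With median-ratio scaling 5 of 7 lay above 0, with a median of 0.34. Without NC replicates 1 and 2 it was 4 of 7, with a median of 0.24. MiR-126a-3p and miR-126a-5p of endothelium summed to between 4710 and 6587 CPM in NC livers and between 7659 and 10155 CPM in MAFLD livers. Both were higher at an unadjusted p under 0.05 in limma, where 13.4% of all miRNAs were. Neither had an adjusted p under 0.05. The median log2 fold change of these 2 was 0.85, and it was 0.35 without NC replicates 1 and 2. The 5 mesenchymal and stellate miRNAs overlapped, at 12612 to 30033 CPM against 19775 to 26950 CPM, mostly miR-143-3p. Their log2 fold changes were above 0 for 5 of 5, with a median of 0.81. Of all miRNAs 71.3% were above 0, with a median of 0.43. MiR-199a-3p and miR-214-3p were higher at an unadjusted p under 0.05, where 13.4% of all miRNAs were, and 0 passed the adjusted p in limma. With median-ratio scaling 3 of 5 lay above 0, with a median of 0.35. Without NC replicates 1 and 2 it was 2 of 5, with a median of −0.065. Of the 9 brain miRNAs, 9 had a log2 fold change below 0. In limma 4 were lower at an unadjusted p under 0.05, where 4.59% of all miRNAs were. The count was 8 in edgeR, where 9.98% of all miRNAs were lower, and 8 in DESeq2, where 10.8% were. Without NC replicates 1 and 2, 5 of 9 lay above 0 and the median was 0.13, against −1.54 with all libraries. The 5 hepatocyte miRNAs summed to between 652214 and 816441 CPM in NC livers and between 644087 and 715313 CPM in MAFLD livers, mostly miR-148a-3p. MiR-148a-3p had a log2 fold change of −0.23. Of the 5, 4 lay above 0, with a median of 0.43, and 0 passed the adjusted p in limma. MiR-122-3p was higher at an unadjusted p under 0.05 in limma, where 13.4% of all miRNAs were. With median-ratio scaling 2 of 5 lay above 0, and without NC replicates 1 and 2 it was 3 of 5. The part of these cell types in the levels of the miR-181 strands was not tested.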

How the data were processed

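The authors deposited CPM values of 1546 mature miRNAs for 6 liver libraries, scaled to the reads on all listed miRNAs. The submitters' processing notes name FastQC, cutadapt, Bowtie, edgeR and GRCm38, with no role or version. Per the labels, end groups and base methylations that hinder cloning were first removed from the RNA and small inserts were selected, so the values count ligated and amplified reads without molecular identifiers. All 6 columns were matched to samples by name. CPM values were divided by the smallest value above 0 of the library, which gave whole reads for 100% of values (within 0.02). Wilson intervals (95%) and the floor of 3 reads cover counting error only.

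MAFLD was compared with NC by limma 3.58.1 in R 4.3.3 (lmFit, eBayes with trend) on log2(CPM + 1). The 501 miRNAs averaging 1 CPM or more were tested, all 7 members among them. The p-values are two-sided with Benjamini-Hochberg adjustment over all 501, with 0.05 as threshold. The pseudocount of 1 CPM weighs most on the scarce strands. Between pseudocounts of 0.1 and 5 CPM, miR-181a-2-3p went from 1.65 to 0.54 and miR-181c-5p from 0.42 to 0.14. MiR-181a-1-3p went from 0.0019 to −0.019 and miR-181c-3p from 0.091 to −0.13, which is not closer to 0. Shares and neighbouring levels were tested by exact permutation over libraries. Named miRNAs are all members, the 3 profiles nearest to miR-181a-5p, and miRNAs of the lists of lymphocyte and cell type miRNAs, of which those passing an unadjusted p and others with values were chosen after their values were seen. Members and lists were chosen with earlier results of these data known. The alternatives were other pseudocounts, filters and scalings, limma without trend, a block for the replicate number, single libraries left out, and edgeR 4.0.16 (quasi-likelihood, TMM) and DESeq2 1.42.0 on the recovered reads. On simulated reads of 501 miRNAs with 200 changed 4-fold, limma called 58.5% of those changed. This share covers miRNAs of all levels with many changed at once, so it is no detection rate for the miR-181 members. Strand sequences and positions come from RefSeq and GENCODE M21 on GRCm38. MiR-181b-2-3p and miR-181d-3p were not analysed here.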

Additional observations from a re-analysis of the deposited data

How the results depend on the processing

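The alternatives that leave out NC replicates 1 and 2 together were chosen after seeing the data. The cause of the changes was not tested. The number of members past the adjusted p was 0 in limma, edgeR and DESeq2 and in all 17 alternatives. The number at an unadjusted p under 0.05 was 0 and became 1 without NC replicate 3 (miR-181a-2-3p), where 35.3% of all miRNAs passed. Its range over single libraries left out was 0 to 1. With NC replicates 1 and 2 left out, the log2 fold change of miR-181c-3p was −1.68, with only 1 NC library left.

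MiR-181a-2-3p ran from 0.17 to 1.65 (log2) in 16 alternatives, at adjusted p of 0.0728 (limma) or above. By design, no filter, no trend and the block leave its 1.13. MiR-181a-5p (0.53) turned to −0.11 with NC replicates 1 and 2 left out. With median-ratio scaling, miR-181b-5p, miR-181c-5p and miR-181d-5p turned to −0.31, −0.0066 and −0.20, and with DESeq2 to −0.39, −0.0039 and −0.18. With edgeR miR-181b-5p and miR-181d-5p turned to −0.35 and −0.16, and with the total taken without miR-148a-3p to −0.20 and −0.093. MiR-181d-5p also turned to −0.16 and miR-181a-1-3p to 0.71 with NC replicates 1 and 2 left out. A pseudocount of 0.1 CPM turned miR-181a-1-3p to 0.0019 and miR-181c-3p to 0.091. With single libraries left out, miR-181a-5p ran from 0.13 to 0.85, miR-181b-5p from −0.00019 to 0.37, miR-181c-5p from 0.13 to 0.57, miR-181d-5p from 0.090 to 0.43, miR-181a-1-3p from −0.37 to 0.24, miR-181a-2-3p from 0.62 to 1.61 and miR-181c-3p from −0.67 to 0.70.

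The summed guide strands (log2 ratio 0.44) ranged between 0.12 and 0.69 with single libraries left out. Their ratio was −0.032 with median-ratio scaling, 0.088 with the total taken without miR-148a-3p and −0.072 with NC replicates 1 and 2 left out. With NC replicates 1 and 2 left out, the differences in share, MAFLD minus NC in percentage points, turned to −2.19 for miR-181a-5p, 2.05 for miR-181b-5p, 11.9 for miR-181a-1-3p among the miR-181a 3p strands and 2.92 for the 3p strands among all miR-181a strands. With single libraries left out these differences ran from 0.625 to 8.02, from −6.10 to −1.49, from −36.0 to −8.76 and from −3.09 to 0.653. They ran from −0.485 to 0.702 for miR-181c-5p, from −3.42 to 0.164 for miR-181d-5p and from −22.0 to 10.1 for miR-181c-3p among the miR-181c strands.

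With the replicate block, 0 of 7 members passed the adjusted or the unadjusted p, and the adjusted p of miR-181a-2-3p was 0.324. Over all miRNAs the block called 5 in place of 1. NC and MAFLD libraries of the same number came from different mice, and their deviations from the group means correlated at −0.046 to 0.012. This cannot show whether libraries of the same number were prepared or sequenced together, which was not tested. Over all miRNAs the adjusted calls were 1 with edgeR and 28 with DESeq2, 114 without NC replicate 3, and 0 without the filter or the trend. The unadjusted calls split into 67 higher and 23 lower, and into 36 and 45 with median-ratio scaling. At 10 CPM the 4 scarce members were not tested. With 30 to 82 reads over 6 libraries for each of these strands, depth limits what could be seen.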
